A study of Mus musculus with 8 samples.

Results

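The integrins and laminins of the mouse lung were compared between naphthalene-injected and control animals. Gene symbols of integrin α subunits, integrin β subunits 1 to 8, laminin chains, both nidogens, perlecan (Hspg2) and agrin (Agrn) were taken from the count table, which gave 41 of its 22244 genes: 26 integrins, 11 laminins and 4 other basement membrane genes. RNA came from the right cranial lobes of adult male wild-type C57BL/6J mice, with 4 naphthalene-injected mice and 4 control mice that the labels call untreated, 1 total RNA library for each mouse. Both groups shared strain, sex and tissue. The sources used here give neither an exact age nor a dose, a vehicle or a sampling time. Effects of injection or vehicle therefore cannot be told apart from those of naphthalene, which mouse club cells turn into toxic products and which is used to injure the airway lining.

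Integrins are membrane receptors made of 1 α and 1 β subunit, which join cells to the extracellular matrix or to other cells. In the lung epithelium, integrins that bind laminin anchor cells to the basement membrane, and the receptor of Itga6 with Itgb4 forms the core of hemidesmosomes. Leukocytes carry their own integrins, those of Itgb2 and Itgb7, which bind adhesion molecules on endothelium and epithelium. Laminins are trimers of 1 α, 1 β and 1 γ chain, and nidogens, perlecan and agrin tie them to the collagen IV network and to cells.

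Libraries held 10743842 to 16792306 counts. Of the 41 genes, 38 had enough counts to be tested. Among those not tested, Lamb3 and Lamc1 were listed at 0 in all 8 libraries. Both lie on chromosome 1, where 1138 of 1150 protein-coding genes of the table were at 0 in every library, against 0.399% to 11.5% of those on the other autosomes. Lamc1, the γ chain of most laminins, and Lamb3, a partner of Lama3 in epithelial laminin, were therefore not measured. Markers of alveolar, airway, endothelial, stromal and blood cells were present, and Marco, Cxcr2, Col3a1 and Des, chromosome 1 genes too, were at 0. Some libraries stood apart from their groups. In control 3 the summed CPM (counts scaled to library size, with TMM factors) of 7 neutrophil markers was 405, against 71.2 to 101 in the other controls. In naphthalene 1 the summed CPM of 8 endothelial markers was 3956, against 1806 to 2781 in the other naphthalene libraries and 3208 to 3755 in controls.

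Naphthalene lungs differed from control lungs in the levels of single integrin and laminin genes, while the summed level of all 26 integrin genes overlapped, at 3870.1 to 4030.4 CPM in naphthalene libraries and 3758 to 4416 CPM in control libraries. Abundant genes dominate this sum. Itgb1 alone gave 1260 of a mean of 3926 CPM in naphthalene lungs and 1003 of 4005 CPM in control lungs. Genes were called where the adjusted p of edgeR's quasi-likelihood test, over all 14192 tested genes, was under 0.05. Of the 38 tested members 20 were called, 7 higher and 13 lower, beside 28.7% of all tested genes (14.1% higher and 14.6% lower). The members' median mean level was 80.5 CPM, against 26.5 CPM over all tested genes, and their median log2 fold change was -0.16, against 0.01. The CPM of the 2 groups did not overlap for 19 of the 38, beside 28.6% of all tested genes. Without control 3 and naphthalene 1 together, 8 members were higher and 16 lower. The counts fell to 4 higher and 8 lower without naphthalene 2, 4 higher and 9 lower without naphthalene 3, 3 higher without control 1 and 4 higher without control 2. An offset for transcript length and GC content turned the split to 13 higher and 9 lower, against 3208 higher and 2366 lower among all genes and 2005 higher and 2070 lower without it. Calls of 11 members held under all 16 alternatives tried: Itga3, Itga5 and Lamc3 as higher, and Itga1, Itga4, Itga8, Itgal, Itgax, Itgb7, Lama1 and Lama3 as lower.

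**Figure D1:**
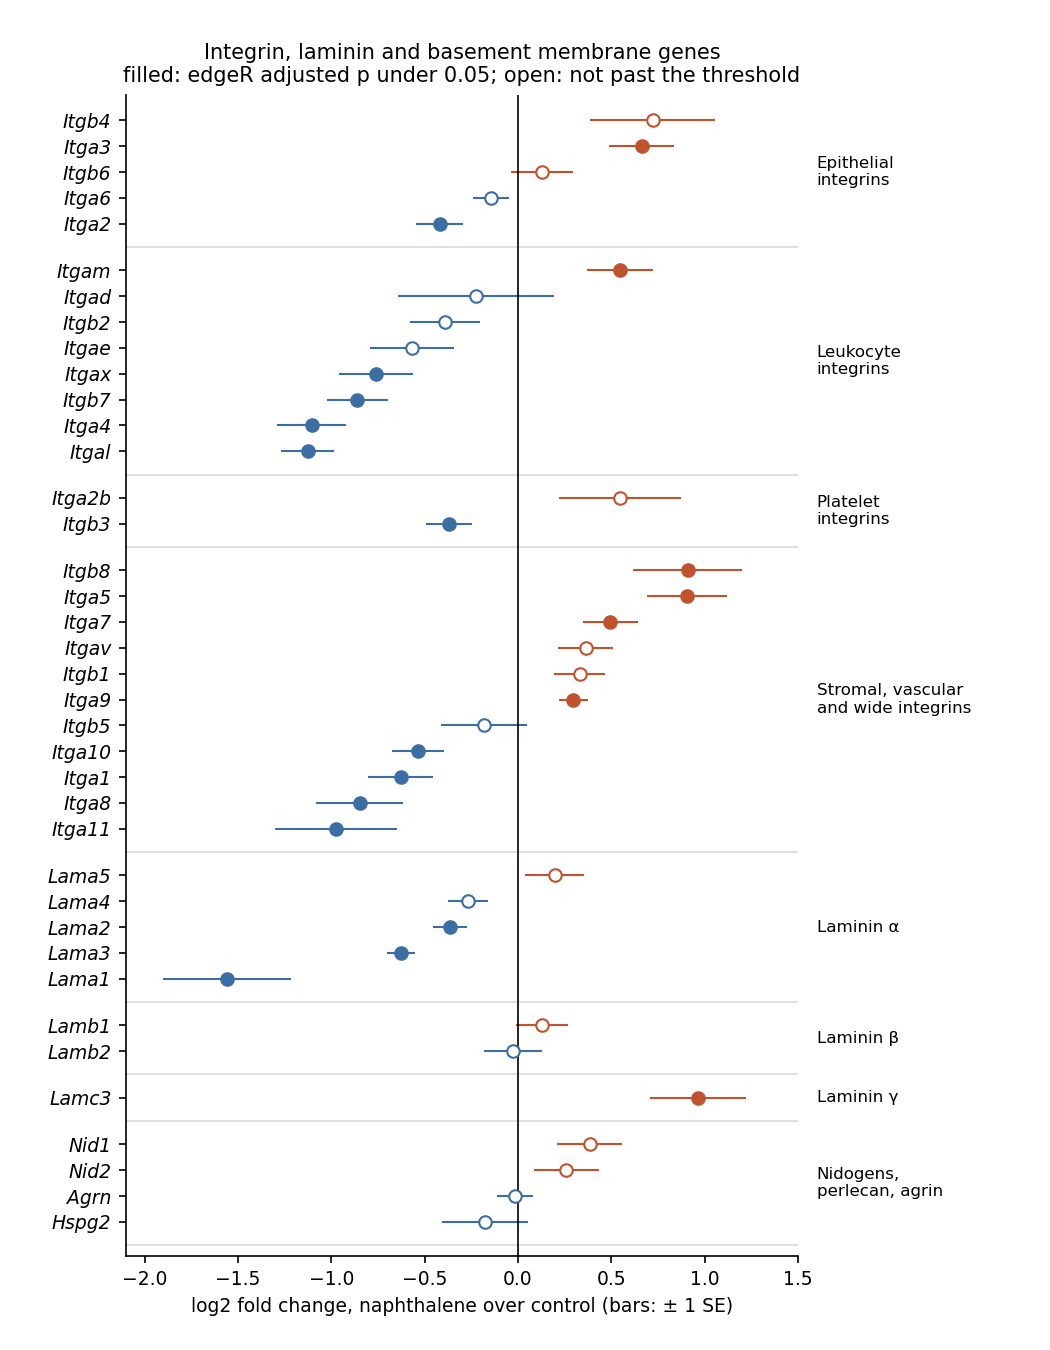
Log2 fold change of the 38 tested members, naphthalene over control, on the x axis, with bars of 1 SE and genes in rows by role. Filled points passed an edgeR adjusted p of 0.05. Leukocyte integrins lie mostly left of 0 and laminin α chains reach -1.56 for Lama1, while Lamc3, Itgb8 and Itga5 lie at 0.91 to 0.96.

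Epithelial integrins did not move as a group. Of 5 genes, Itga3 rose, Itga2 fell and Itga6, Itgb4 and Itgb6 did not pass, with a median log2 fold change of 0.13. Beside them, 14.1% of all tested genes were called higher and 14.6% lower. Itga3 encodes the α subunit of a laminin receptor of epithelial cells. Its level was 407, 419.9, 395 and 255 CPM in naphthalene libraries 1 to 4, against 243, 229, 243 and 218 CPM in control libraries 1 to 4. Every naphthalene library exceeded every control, and naphthalene 4 was the closest to them (log2 fold change 0.66 ± 0.17 (SE) at an edgeR adjusted p of 0.00613). Itga2, the α subunit of an epithelial collagen receptor, stood at 61.96, 51.9, 57.6 and 47.3 CPM in naphthalene libraries and 69.2, 83.2, 78.1 and 62.2 CPM in controls. The groups did not overlap, although naphthalene 1 and control 4 nearly met (log2 fold change -0.42 ± 0.13 (SE) at an edgeR adjusted p of 0.0218). The call of Itga2 was lost without naphthalene 2, control 2 or control 3 (adjusted p 0.0521 to 0.0742) and with the length and GC offset (log2 fold change -0.30, adjusted p = 0.0847).

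Neither subunit of the hemidesmosome receptor passed the test. Itgb4 was at 62.9, 42.9, 36.4 and 26.9 CPM in naphthalene libraries, against 31.1, 22.9, 16.8 and 32.1 CPM in controls. Naphthalene 4 lay within the control range, and the test fell short of the threshold (log2 fold change 0.72 ± 0.33 (SE) at an edgeR adjusted p of 0.0572). Itgb4 passed without naphthalene 4 (adjusted p = 0.0172), with DESeq2 (0.0281) and with the length and GC offset (0.000702). Itga6 was at 287, 256, 244 and 211 CPM in naphthalene libraries and 271, 277, 293 and 264 CPM in controls, which overlapped (log2 fold change -0.14 ± 0.10 (SE) at an edgeR adjusted p of 0.318). Per kilobase of exon, the Itgb4 level was 0.149, 0.114, 0.102 and 0.0870 times that of Itga6 in naphthalene libraries and 0.0784, 0.0565, 0.0391 and 0.0830 times in controls. Another laminin-binding α subunit, Itga3, was 1.17, 1.36, 1.34 and 1.002 times as high per kilobase as Itga6 in naphthalene libraries and 0.745, 0.685, 0.688 and 0.686 times in controls. Itga3 was thus above Itga6 in 3 naphthalene libraries, all but level with it in naphthalene 4, and below it in all 4 controls. Itgb6, which pairs with Itgav in a receptor that activates latent TGF-β, averaged 185 ± 40.2 CPM in naphthalene lungs and 169 ± 16.96 CPM in control lungs (mean ± SD, n = 4 each; log2 fold change 0.13 ± 0.17 (SE) at an edgeR adjusted p of 0.524).

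Markers of epithelial cells did not move as 1 block either. For comparison, 14.1% of all tested genes were called higher and 14.6% lower. Of 8 alveolar type 1 markers 3 rose and 0 fell, and of 8 alveolar type 2 markers 2 rose and 0 fell. In contrast 6 of 7 club cell markers and 6 of 7 ciliated cell markers fell, with summed levels of 2416 to 4981 CPM in naphthalene libraries and 7084 to 13273 CPM in controls for club cells, and 107 to 199 and 542 to 861 CPM for ciliated cells. Basal cell markers were near 0, with summed levels of 2.28 to 11.1 CPM in naphthalene libraries and 2.46 to 9.05 CPM in controls. In whole lobes fewer cells of a type and less RNA per cell cannot be told apart, and the part of these cell types in the integrin values was not tested.

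More leukocyte integrins fell than rose. Of 8 genes, Itgal, Itga4, Itgb7 and Itgax fell, Itgam rose, and Itgb2, Itgae and Itgad did not pass, with a median log2 fold change of -0.66. Calls over all tested genes were 14.6% lower and 14.1% higher. Itgal, the α subunit of the leukocyte integrin LFA-1 that binds ICAM-1, was at 28.6, 22.4, 23.7 and 30.4 CPM in naphthalene libraries and 51.6, 51.8, 57.1 and 68.5 CPM in controls. The groups were far apart (log2 fold change -1.13 ± 0.14 (SE) at an edgeR adjusted p of 0.000176). Itgax, which encodes CD11c, the α subunit of an integrin of dendritic cells and alveolar macrophages, stood at 29.3, 29.6, 37.9 and 49.996 CPM in naphthalene libraries, against 52.4, 62.4, 68.3 and 64.6 CPM in controls. Naphthalene 4 came close to control 1 without reaching it (log2 fold change -0.76 ± 0.20 (SE) at an edgeR adjusted p of 0.00628). Itgam, the α subunit of the myeloid receptor Mac-1, went the other way, at 33.3, 38.6, 44.1 and 34.3 CPM in naphthalene libraries and 24.8, 19.2, 32.2 and 26.8 CPM in controls. Control 3, which held the most neutrophil marker RNA of the controls, was also their highest in Itgam, still under every naphthalene library (log2 fold change 0.55 ± 0.18 (SE) at an edgeR adjusted p of 0.0221). The Itgam call was lost without naphthalene 2, naphthalene 3, control 1 or control 2 (adjusted p 0.0556 to 0.0666), and without control 3 the log2 fold change was 0.67.

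Itgam and Itgax lie next to each other on chromosome 7, with 0 coding genes between them and Itgad following with 0 between, while Itgal lies 35 coding genes away (gene order of RefSeq on GRCm38.p6). The promoters of these neighbours, which moved in opposite directions, are shown from 250 bases before to 50 bases after the start, as RefSeq gives them on GRCm38.p6, both on the plus strand, at chr7:128062390-128062689 for Itgam and chr7:128129300-128129599 for Itgax. Capitals mark matches, on either strand, to the AP-1 motif TGANTCA, the TEAD motif GGAATG, the NF-κB motif GGGNNTTCC and the PU.1 core GAGGAA, the last of these added after the values were seen.
Itgam: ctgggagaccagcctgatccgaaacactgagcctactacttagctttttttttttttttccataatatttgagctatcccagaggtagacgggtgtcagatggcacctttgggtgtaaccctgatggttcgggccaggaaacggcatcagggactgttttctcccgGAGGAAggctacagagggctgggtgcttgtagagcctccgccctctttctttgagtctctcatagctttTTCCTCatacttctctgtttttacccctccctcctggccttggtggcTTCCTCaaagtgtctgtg
Itgax: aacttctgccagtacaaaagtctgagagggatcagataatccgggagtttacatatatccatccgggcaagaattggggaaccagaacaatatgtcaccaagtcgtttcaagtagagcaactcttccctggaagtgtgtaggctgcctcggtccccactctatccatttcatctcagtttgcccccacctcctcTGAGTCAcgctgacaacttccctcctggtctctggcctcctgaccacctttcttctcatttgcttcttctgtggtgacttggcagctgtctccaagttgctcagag
The Itgam promoter held 3 PU.1 cores and none of the other motifs, and the Itgax promoter held 1 AP-1 motif and none of the others. PU.1 is a transcription factor of myeloid and B cells. Of all 32851 RefSeq promoters, 28.3% held the PU.1 core, 7.81% the AP-1 motif, 14.7% the TEAD motif and 5.82% the NF-κB motif. Of the 30 promoters of members, 15 held the PU.1 core and 3 the AP-1 motif. The PU.1 core occurred in genes called higher (Itga3, Itga5 and Itgam) and in genes called lower (Itga11, Itgb7 and Lama2). A match describes these letters in this window and is not evidence of binding.

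The β subunit shared by these receptors overlapped between the groups. Itgb2 was at 52.9, 48.3, 66.9 and 71.9 CPM in naphthalene libraries and 59.97, 79.6, 91.4 and 83.3 CPM in controls. The test did not pass (log2 fold change -0.39 ± 0.19 (SE) at an edgeR adjusted p of 0.0808), although it did without naphthalene 4 or control 1 (adjusted p 0.0341 to 0.0360). The mix of its α partners shifted. Itgam made up 36.1, 42.05, 41.1 and 29.5 percent of the summed counts of Itgal, Itgam, Itgax and Itgad in naphthalene libraries, against 19.2, 14.3, 20.2 and 16.5 percent in controls, or 37.2% ± 5.75 and 17.5% ± 2.69 (mean ± SD, n = 4 each). Itgal made up 25.9% ± 3.78 in naphthalene libraries and 39.1% ± 2.67 in controls. Per kilobase, Itgam was 1.51, 2.24, 2.41 and 1.46 times as high as Itgal in naphthalene libraries and 0.623, 0.481, 0.729 and 0.507 times in controls, so that Itgam was above Itgal in every naphthalene library and below it in every control. These ratios are taken within a library and do not depend on scaling between libraries. Itgad, the fourth partner, was barely detected, at 15 to 19 counts in naphthalene libraries and 6 to 31 counts in controls (log2 fold change -0.23 ± 0.42 (SE) at an edgeR adjusted p of 0.688).

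**Figure D2:**
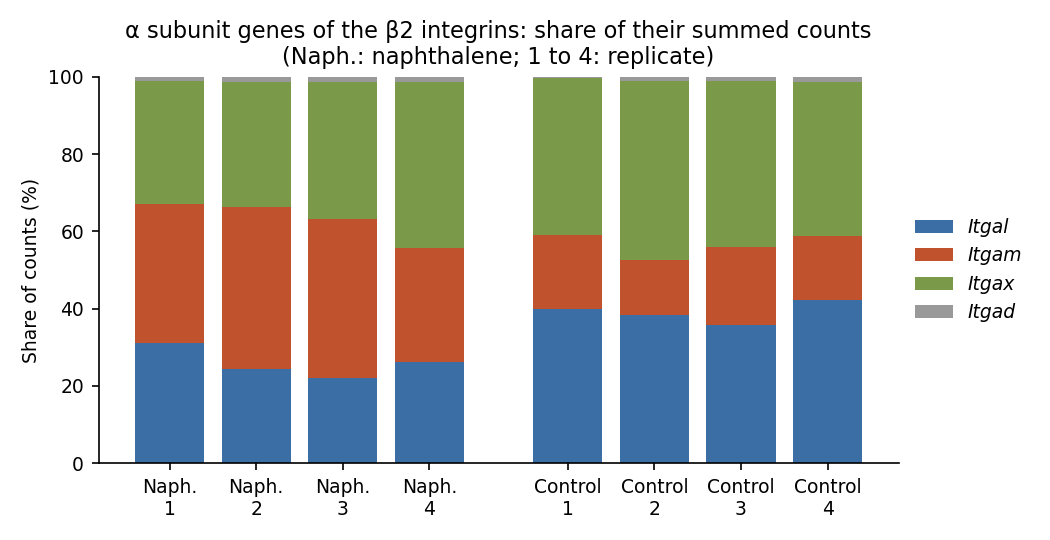
Share of the summed counts of the 4 β2 partner genes (y axis, percent) taken by each gene in every library, naphthalene libraries on the left and controls on the right. Itgam holds 29.5% to 42.05% in naphthalene libraries and 14.3% to 20.2% in controls.

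Among integrins of trafficking and mucosal lymphocytes Itga4 and Itgb7 fell and Itgae did not pass. Itga4 pairs with Itgb1 to bind VCAM-1 or with Itgb7 to bind MAdCAM-1, and its level was 74.7, 62.4, 65.01 and 107 CPM in naphthalene libraries, against 156, 162, 183 and 163 CPM in controls. All naphthalene libraries were below all controls, naphthalene 4 least so (log2 fold change -1.11 ± 0.18 (SE) at an edgeR adjusted p of 0.000521). Itgb7 was at 17.4, 12.4, 11.2 and 11.4 CPM in naphthalene libraries and 24.2, 21.5, 23.1 and 27.00 CPM in controls, again without overlap (log2 fold change -0.86 ± 0.16 (SE) at an edgeR adjusted p of 0.00209). Itgae, whose product joins that of Itgb7 to bind E-cadherin, was at 4.76, 3.26, 5.71 and 5.59 CPM in naphthalene libraries and 5.83, 7.69, 8.79 and 6.16 CPM in controls. These ranges did not overlap either, but the test did not pass (log2 fold change -0.57 ± 0.23 (SE) at an edgeR adjusted p of 0.0698). All 9 T cell, 7 NK cell and 8 B cell markers fell. Their summed levels were 12.98 to 19.3 CPM in naphthalene libraries and 34.9 to 42.7 CPM in controls for T cells, 10.5 to 23.3 and 41.9 to 54.9 CPM for NK cells, and 49.05 to 86.3 and 154 to 211 CPM for B cells. Of 6 tested neutrophil markers 2 rose and 0 fell, with summed levels of 223, 319, 508 and 507 CPM in naphthalene libraries and 97.2, 71.2, 405 and 101 CPM in controls. Of 8 monocyte and recruited macrophage markers 2 rose and 3 fell, and of 7 tested alveolar macrophage markers 1 rose and 0 fell. All these marker counts stand beside 14.1% of all tested genes called higher and 14.6% called lower. The part of these cells in the leukocyte integrin values was not tested.

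**Figure D3:**
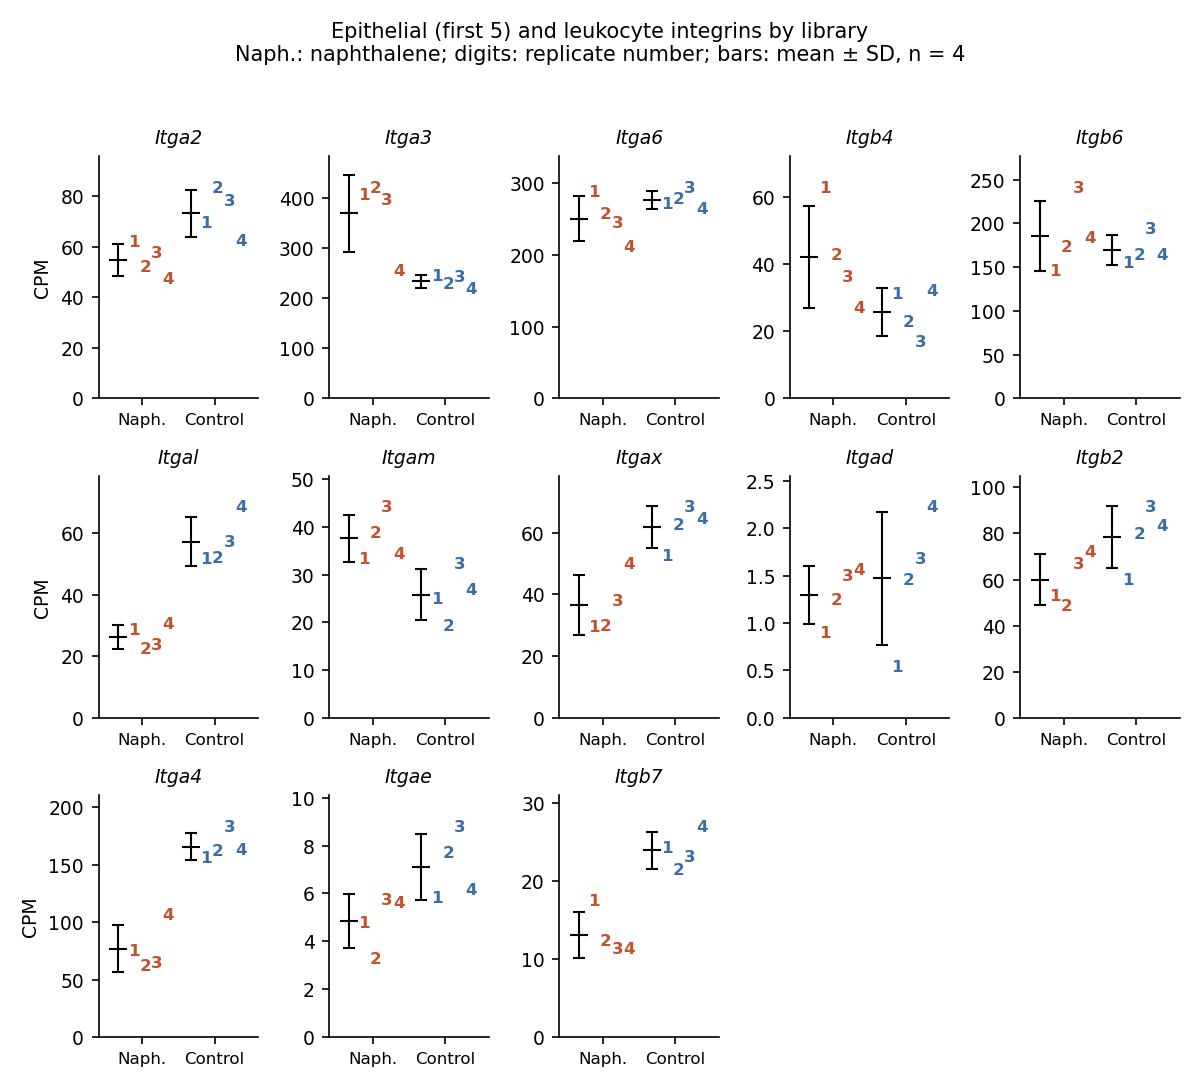
CPM (y axes, each from 0) of the 5 epithelial and 8 leukocyte integrin genes in each library, naphthalene left of control, with digits for the replicate and bars for mean ± SD (n = 4). Itga3 and Itgam are higher and Itgal, Itgax, Itga4 and Itgb7 lower in all 4 naphthalene libraries than in all 4 controls.

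The balance of epithelial to leukocyte integrin counts was higher in every naphthalene library than in every control. The lists are named by cell type, but RNA of whole lobes does not show which cells held each gene's counts. The 5 epithelial genes summed to 964, 944, 974 and 723 CPM in naphthalene libraries and 769.6, 776, 824 and 741 CPM in controls, and naphthalene 4 was lower than every control. The 8 leukocyte genes summed to 242, 218, 256 and 312 CPM in naphthalene libraries and 376, 406, 466 and 441 CPM in controls, without overlap. Single genes weighed heavily in both sums. Of mean epithelial sums of 901 CPM in naphthalene and 778 CPM in control lungs, Itga3 gave 369 and 233 CPM. Of mean leukocyte sums of 257 and 422 CPM, Itga4 gave 77.2 and 166 CPM. The log2 ratio of the epithelial to the leukocyte sum was 1.99, 2.11, 1.93 and 1.21 in naphthalene libraries, against 1.04, 0.94, 0.82 and 0.75 in controls. That is 1.81 ± 0.41 in naphthalene lungs and 0.89 ± 0.13 in control lungs (mean ± SD, n = 4 each), a difference of 0.93. Naphthalene 4 was the nearest to the controls, and the difference stayed between 0.83 and 1.13 when each library was left out. No test was made, since the lists were chosen with earlier results of these data known. Itga3 is the only 1 of the 5 epithelial genes that passed as higher, and 4 of the 8 leukocyte genes passed as lower. Among all tested genes 14.1% passed as higher and 14.6% as lower.

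**Figure D4:**
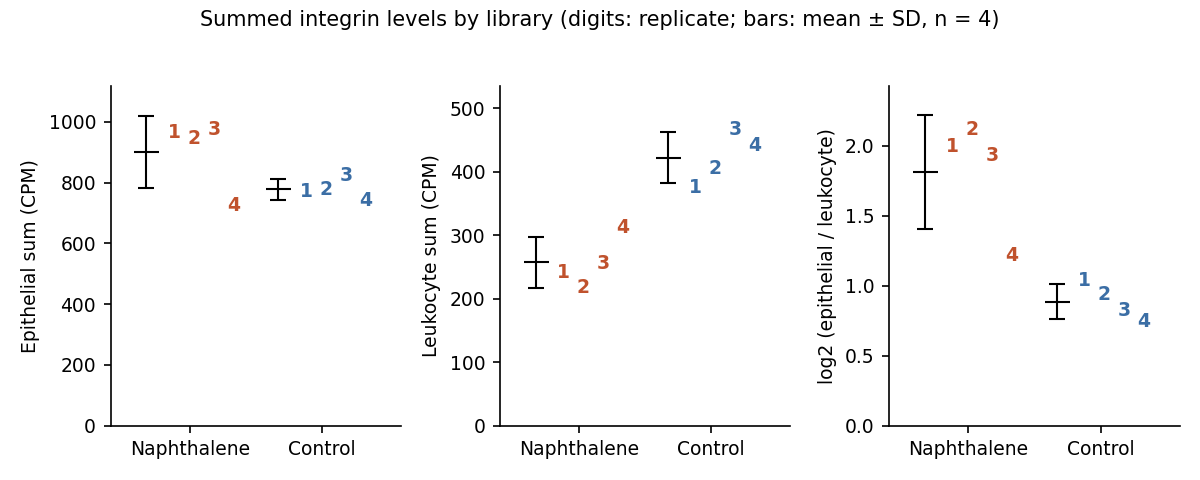
Summed CPM of the 5 epithelial integrins (left), of the 8 leukocyte integrins (middle) and the log2 ratio of the sums (right), by library, with digits for the replicate and bars for mean ± SD (n = 4). The leukocyte sums of 218 to 312 CPM in naphthalene libraries lie below those of 376 to 466 CPM in controls, while the epithelial sums overlap.

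Genes listed as platelet integrins gave no common direction. Itga2b, the α subunit of the platelet fibrinogen receptor, averaged 11.7 ± 4.14 CPM in naphthalene lungs and 7.96 ± 2.31 CPM in control lungs, with overlap (log2 fold change 0.55 ± 0.33 (SE) at an edgeR adjusted p of 0.148). Its partner Itgb3, which also joins Itgav in other cells, averaged 44.2 ± 6.61 and 57.2 ± 3.45 CPM, with no overlap (log2 fold change -0.37 ± 0.12 (SE) at an edgeR adjusted p of 0.0352). Per kilobase of exon, Itgb3 averaged 7.64 CPM in naphthalene lungs and 9.89 CPM in control lungs, above Itga2b at 3.40 and 2.32 CPM. The share of Itgb3 RNA from platelets was not tested. Itgb3 was not called without naphthalene 2 or 3 or any 1 control (adjusted p 0.0509 to 0.0828) and with the length and GC offset (log2 fold change -0.24, adjusted p = 0.0758). Summed platelet markers were at 27.7, 28.6, 61.7 and 29.6 CPM in naphthalene libraries, highest in naphthalene 3, which was also the highest in Itga2b, against 24.7 to 42.1 CPM in controls.

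Integrins of stromal, vascular and many other cells moved in both directions. Of 11 genes Itga5, Itgb8, Itga7 and Itga9 rose and Itga1, Itga8, Itga10 and Itga11 fell, with a median log2 fold change of 0.30. Beside them, 14.1% of all tested genes were called higher and 14.6% lower. Itga5, the α subunit of the main fibronectin receptor, was at 114, 101, 93.9 and 58.8 CPM in naphthalene libraries and 45.8, 54.9, 46.7 and 48.8 CPM in controls. Naphthalene 4 was the lowest of its group and just above the highest control (log2 fold change 0.91 ± 0.22 (SE) at an edgeR adjusted p of 0.00273). Itgb8, which pairs with Itgav to activate TGF-β, was at 17.7, 13.8, 10.7 and 24.4 CPM in naphthalene libraries and 8.25, 7.11, 11.7 and 8.52 CPM in controls. Naphthalene 3 lay below control 3 (log2 fold change 0.91 ± 0.29 (SE) at an edgeR adjusted p of 0.0170), and the call was lost without control 1 or control 2 (adjusted p 0.05002 to 0.0551). Itga7, a laminin receptor subunit of muscle, averaged 32.4 ± 3.21 CPM in naphthalene lungs and 22.95 ± 3.95 CPM in control lungs without overlap (log2 fold change 0.49 ± 0.15 (SE) at an edgeR adjusted p of 0.0198). It lost its call without naphthalene 2, naphthalene 3 or control 1 (adjusted p 0.0501 to 0.0541). Itga9, which binds tenascin-C and VCAM-1, averaged 289.6 ± 29.7 and 236 ± 10.7 CPM (log2 fold change 0.30 ± 0.08 (SE) at an edgeR adjusted p of 0.0371). Itga9 was not called without naphthalene 2 or 3 or any 1 control (adjusted p 0.0727 to 0.126) or with no filter on low counts (0.0620), and with the length and GC offset its log2 fold change was 0.47.

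Itga5 and Itga4 both bind fibronectin with Itgb1 and moved in opposite directions. Per kilobase, Itga5 was 3.39, 3.61, 3.22 and 1.23 times as high as Itga4 in naphthalene libraries, against 0.654, 0.755, 0.567 and 0.669 times in controls. Itga5 was above Itga4 in every naphthalene library, by the least in naphthalene 4, and below it in every control. Their promoters are shown for that reason, from RefSeq on GRCm38.p6 with the same motifs in capitals, at chr15:103366742-103367041 on the minus strand for Itga5 and chr2:79255176-79255475 on the plus strand for Itga4, each written along its gene.
Itga5: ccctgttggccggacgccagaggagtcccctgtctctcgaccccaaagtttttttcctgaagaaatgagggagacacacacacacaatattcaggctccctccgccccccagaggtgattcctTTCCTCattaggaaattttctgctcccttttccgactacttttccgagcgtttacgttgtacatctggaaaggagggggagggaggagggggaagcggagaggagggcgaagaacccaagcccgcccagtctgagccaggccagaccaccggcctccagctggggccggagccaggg
Itga4: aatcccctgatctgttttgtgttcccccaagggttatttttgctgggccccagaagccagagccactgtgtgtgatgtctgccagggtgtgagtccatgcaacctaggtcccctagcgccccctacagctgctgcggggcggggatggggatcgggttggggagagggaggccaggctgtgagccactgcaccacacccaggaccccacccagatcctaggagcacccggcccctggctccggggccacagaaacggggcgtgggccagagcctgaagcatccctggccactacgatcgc
The Itga5 window held 1 PU.1 core and no other motif, and the Itga4 window held none of the 4.

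Itga1, Itga10 and Itga11, α subunits of collagen receptors like Itga2, were among the genes that fell. Itga1 was at 441, 343, 263 and 319 CPM in naphthalene libraries and 487, 589, 568 and 467 CPM in controls, and naphthalene 1 came closest to the controls (log2 fold change -0.63 ± 0.17 (SE) at an edgeR adjusted p of 0.00995). Itga10 averaged 5.10 ± 0.494 CPM in naphthalene lungs and 7.36 ± 1.26 CPM in control lungs (log2 fold change -0.53 ± 0.14 (SE) at an edgeR adjusted p of 0.0378), and Itga11, a receptor subunit of fibroblasts, averaged 3.67 ± 1.12 and 7.30 ± 2.47 CPM (log2 fold change -0.97 ± 0.33 (SE) at an edgeR adjusted p of 0.0246). Both are low genes. Itga10 lost its call without naphthalene 1, 2 or 3 or control 1, 2 or 4 (adjusted p 0.0691 to 0.118) and with the length and GC offset (0.0788), and Itga11 without naphthalene 2, 3 or 4 or control 1 or 4 (adjusted p 0.0501 to 0.0837). The largest fall in CPM was that of Itga8, the subunit of lung mesenchyme that binds nephronectin. Its level was 366, 289, 203 and 416 CPM in naphthalene libraries, lowest in naphthalene 3, against 585, 559, 628 and 520.4 CPM in controls (log2 fold change -0.85 ± 0.23 (SE) at an edgeR adjusted p of 0.00622). Its ligand gene, Npnt, fell as well, to 309 ± 32.6 CPM in naphthalene lungs, against 552 ± 34.95 CPM in control lungs (log2 fold change -0.84 ± 0.09 (SE) at an edgeR adjusted p of 0.000213). Of 7 tested fibroblast markers 1 fell and 0 rose, and of 8 endothelial markers 2 fell and 0 rose. The share over all tested genes was 14.6% called lower and 14.1% called higher. Smooth muscle and pericyte markers summed to 609, 457, 298 and 269.6 CPM in naphthalene libraries and 568, 524, 332.3 and 579 CPM in controls. The part of these cells in the falls was not tested.

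Of the stromal, vascular and widely expressed integrins, Itgb1, Itgav and Itgb5 did not pass. Itgb1, the β subunit of most matrix-binding integrins, was the most abundant integrin gene per kilobase, at 330.3 ± 42.9 RPKM in naphthalene lungs and 263 ± 37.5 RPKM in control lungs (CPM per kilobase of exon, mean ± SD, n = 4 each). Its CPM was 1078, 1190.4, 1460.1 and 1312 in naphthalene libraries and 904, 991, 1208 and 908 in controls, where control 3 exceeded naphthalene 1 and 2 (log2 fold change 0.33 ± 0.14 (SE) at an edgeR adjusted p of 0.0849). Without control 3 the adjusted p of Itgb1 was 0.0292, without naphthalene 1 it was 0.0341, and with the length and GC offset it was 0.0146. Itgav averaged 268 ± 44.1 CPM in naphthalene lungs and 209 ± 25.2 CPM in control lungs (log2 fold change 0.36 ± 0.15 (SE) at an edgeR adjusted p of 0.0601), and it passed without control 3 or naphthalene 1 (adjusted p 0.0112 to 0.0321), with DESeq2 (0.0429) and with the length and GC offset (log2 fold change 0.47, adjusted p = 0.00212). Itgb5 averaged 84.7 ± 27.5 and 96.2 ± 5.27 CPM (log2 fold change -0.18 ± 0.23 (SE) at an edgeR adjusted p of 0.495), and without naphthalene 1, its highest library, it passed as lower (adjusted p = 0.03995).

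Per kilobase, the next β subunits after Itgb1 lay close together. In control lungs Itgb5 was at 28.4 ± 1.55, Itgb6 at 27.9 ± 2.80 and Itgb2 at 26.5 ± 4.49 RPKM, which did not differ beyond their spread, and in naphthalene lungs they were at 24.99 ± 8.11, 30.6 ± 6.63 and 20.2 ± 3.77 RPKM. The highest α subunit in control lungs was Itga8 at 98.6 ± 7.74 RPKM, followed by Itga6 at 63.4 ± 2.83, Itga1 at 48.1 ± 5.45 and Itga3 at 44.4 ± 2.31 RPKM, of which the last pair did not differ beyond their spread. In naphthalene lungs the order was Itga3 at 70.3 ± 14.6, Itga6 at 57.3 ± 7.20, Itga8 at 54.8 ± 16.00 and Itga9 at 40.5 ± 4.16 RPKM, and the ranges of mean ± SD overlapped between neighbours in that order. Lengths came from GENCODE M21 on GRCm38, another annotation than that of the counts.

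Laminin α chains were lower or did not pass. Of 5 tested genes 3 fell and 0 rose, with a median log2 fold change of -0.36, beside 14.6% of all tested genes called lower. Lama3, the α chain of epithelial laminins, was at 262, 232, 252 and 255 CPM in naphthalene libraries and 372, 391, 434 and 352 CPM in controls. The naphthalene values lay close together and far below the controls (log2 fold change -0.63 ± 0.07 (SE) at an edgeR adjusted p of 0.000746). Lama2, the α chain of muscle and mesenchymal laminins, averaged 145 ± 12.04 CPM in naphthalene lungs and 187 ± 17.96 CPM in control lungs, with naphthalene 4 just under control 1 (log2 fold change -0.36 ± 0.09 (SE) at an edgeR adjusted p of 0.0176). Lama2 lost its call without naphthalene 2 or 3 (adjusted p 0.0571 to 0.0634) and with the length and GC offset (log2 fold change -0.21, adjusted p = 0.0641). Lama1, a chain known mainly from embryonic basement membranes, was low, with 45, 14, 19 and 21 counts in naphthalene libraries and 47, 87, 76 and 58 counts in controls, or 2.68, 0.913, 1.67 and 1.92 CPM in naphthalene libraries and 4.21, 6.31, 6.68 and 4.15 CPM in controls. It had the largest fold change of the tested members, and the groups did not overlap in CPM (log2 fold change -1.56 ± 0.34 (SE) at an edgeR adjusted p of 0.00368).

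The α chains of endothelial and widely shared basement membranes did not pass. Lama4, the endothelial chain, averaged 179 ± 23.4 CPM in naphthalene lungs and 216 ± 14.8 CPM in control lungs (log2 fold change -0.27 ± 0.11 (SE) at an edgeR adjusted p of 0.0823), and it passed as lower without naphthalene 1 (adjusted p = 0.0239). Lama5, the other α chain of epithelial basement membranes, was at 428, 403, 434 and 289 CPM in naphthalene libraries and 380.5, 315, 305 and 356 CPM in controls, with naphthalene 4 the lowest of all 8 (log2 fold change 0.20 ± 0.16 (SE) at an edgeR adjusted p of 0.307). Lama5 passed as higher without naphthalene 4 (adjusted p = 0.0372) and with the length and GC offset (log2 fold change 0.46, adjusted p = 0.0131). Per kilobase, Lama3 was 0.649, 0.611, 0.615 and 0.935 times as high as Lama5 in naphthalene libraries, against 1.04, 1.31, 1.51 and 1.05 times in controls. Lama3 was thus below Lama5 in every naphthalene library and above it in every control.

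Of the measured β and γ chains Lamc3 passed, and Lamb1 and Lamb2 did not. It was at 74.04, 64.4, 52.4 and 33.9 CPM in naphthalene libraries and 28.1, 31.6, 25.2 and 30.4 CPM in controls. Naphthalene 4 was just above the highest control and the other 3 were well above (log2 fold change 0.96 ± 0.26 (SE) at an edgeR adjusted p of 0.00473). Lamb1 averaged 185 ± 34.2 CPM in naphthalene lungs and 169 ± 10.1 CPM in control lungs (log2 fold change 0.13 ± 0.14 (SE) at an edgeR adjusted p of 0.471), and it passed as higher with the length and GC offset (log2 fold change 0.26, adjusted p = 0.0173). Lamb2, the β chain of vascular and neuromuscular basement membranes, averaged 229 ± 42.8 and 234 ± 21.2 CPM (log2 fold change -0.03 ± 0.15 (SE) at an edgeR adjusted p of 0.8998). With Lamc1 and Lamb3 not measured, no complete laminin trimer of the epithelium can be described from these counts.

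**Figure D5:**
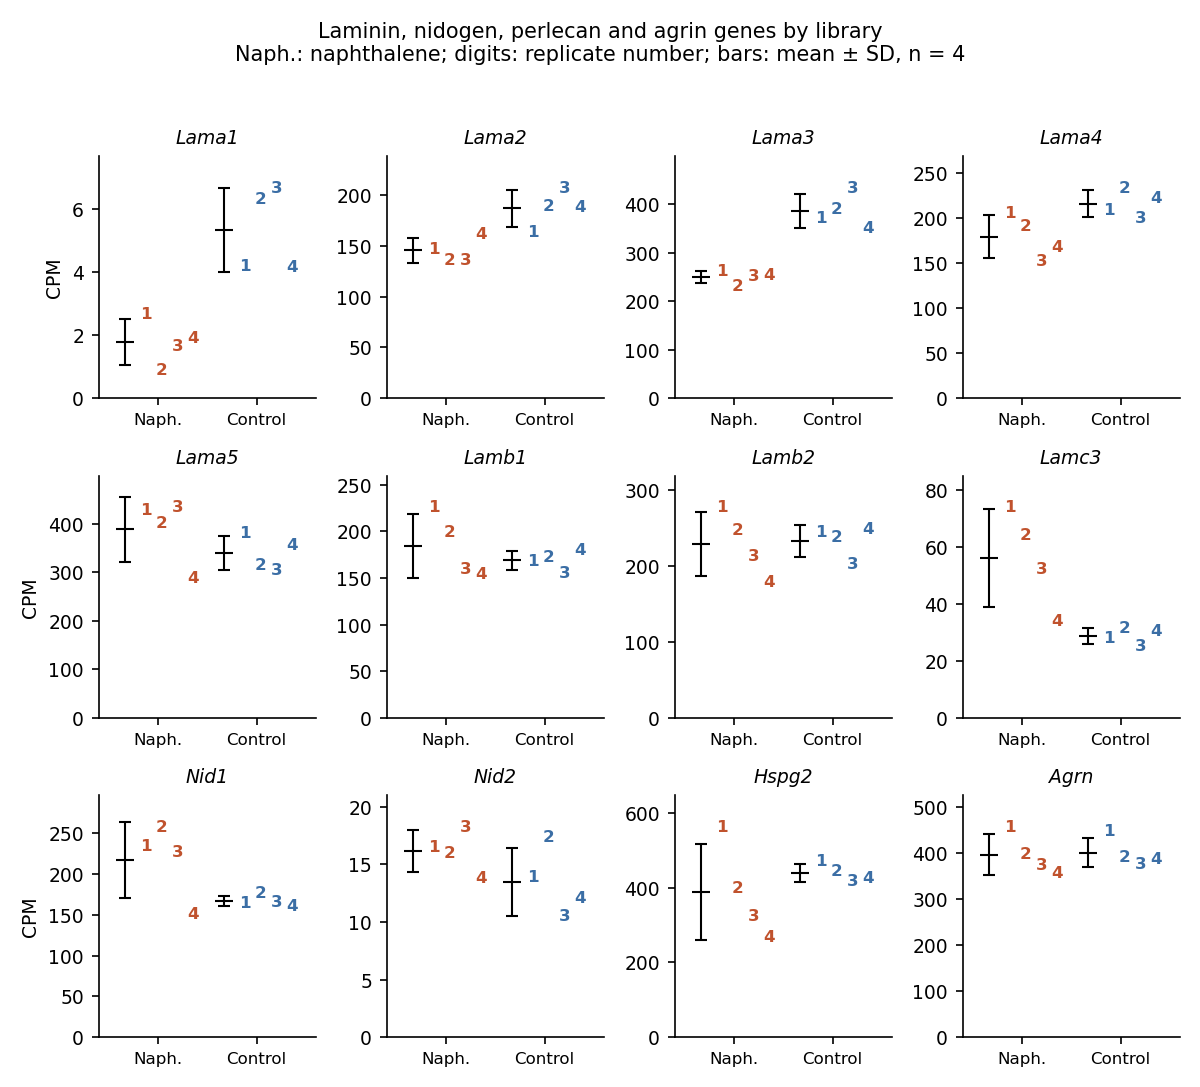
CPM (y axes, each from 0) of the 8 measured laminin chains, the nidogens, perlecan and agrin in each library, naphthalene left of control, with digits for the replicate and bars for mean ± SD (n = 4). Lama1, Lama2 and Lama3 are lower and Lamc3 higher in all 4 naphthalene libraries than in all 4 controls, and Hspg2 spreads from 269 to 563 CPM within the naphthalene group.

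Of the 4 genes for nidogens and proteoglycans 0 passed with edgeR, DESeq2 or limma on all libraries without an offset or replicate block. That holds for either direction, beside 28.7% of all tested genes called with edgeR. Only 1, Nid1, had an unadjusted edgeR p under 0.05. Nid1, which bridges laminin and collagen IV, was at 235, 258, 228 and 151 CPM in naphthalene libraries and 164, 177, 166 and 161 CPM in controls. Naphthalene 1, 2 and 3 exceeded all controls and naphthalene 4 was below them (log2 fold change 0.38 ± 0.17 (SE) at an edgeR adjusted p of 0.0656). Nid1 passed as higher without naphthalene 4 (adjusted p = 0.00108), with the replicate block (0.0497) and with the length and GC offset (log2 fold change 0.52, adjusted p = 0.00597). Nid2 averaged 16.2 ± 1.83 CPM in naphthalene lungs and 13.5 ± 2.95 CPM in control lungs, and Agrn averaged 396 ± 44.01 and 400.4 ± 31.9 CPM (adjusted p = 0.256 and 0.929). The heparan sulphate proteoglycan gene Hspg2 was at 563, 398, 324 and 269 CPM in naphthalene libraries and 471, 445, 416 and 425 CPM in controls. Its naphthalene values spanned the control range on both sides (log2 fold change -0.18 ± 0.23 (SE) at an edgeR adjusted p of 0.510). Without naphthalene 1 it passed as lower (adjusted p = 0.0283). Endothelial marker sums in the same libraries were 3956, 2781, 1977 and 1806 CPM for naphthalene and 3561, 3755, 3208 and 3352 CPM for controls, and their part in the Hspg2 values was not tested.

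Spread among mice was larger in the naphthalene group for most members, as for most genes. The SD of log2 CPM was larger in the naphthalene group for 28 of 38 tested members, beside 70.7% of all tested genes, with a median SD of 0.29 in naphthalene libraries and 0.15 in controls. Naphthalene 1 was above the mean of the other 3 naphthalene libraries for 27 of the 38, beside 52.2% of all tested genes. Across the 38 members this excess rose with GC content (Pearson r = 0.40, Spearman rho = 0.42), a description over genes that share the same libraries. Naphthalene 4 was the nearest to the controls, or within their range, for several members, among them Itga3, Itgb4, Itga5, Itga4, Itga8, Itgax, Lama2 and Lamc3. It was the farthest from the controls for others, among them Itga2, Itgb3 and Itgb8.

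Genes of the wider pathway came from lists chosen with earlier results of these data known. Of 28 tested genes of integrin activation and focal adhesions 4 rose and 2 fell, a smaller share than the 28.7% called over all tested genes, with a median log2 fold change of 0.07, against 0.01 over all tested genes. Actn1, an actinin that links actin to adhesions, averaged 261 ± 51.5 CPM in naphthalene lungs and 136 ± 8.11 CPM in control lungs (log2 fold change 0.94 ± 0.16 (SE) at an edgeR adjusted p of 0.000619). Actn4 and the filamin gene Flna rose by 0.57 and 0.42 on the log2 scale (adjusted p = 0.0106 and 0.0139), and Flna did not pass without control 2 (0.0511). The kinase gene Ptk2b fell, to 30.2 ± 1.47 CPM in naphthalene lungs, against 45.9 ± 3.06 CPM in control lungs (adjusted p = 0.000816). Beside 28.7% called over all tested genes, 1 of 3 tested hemidesmosome and tetraspanin genes rose and 0 fell. It was Cd151, the tetraspanin partner of the laminin-binding integrins, at 256, 261, 269 and 269.8 CPM in naphthalene libraries and 176, 181, 188 and 149 CPM in controls (log2 fold change 0.61 ± 0.08 (SE) at an edgeR adjusted p of 0.000785). Dst, on chromosome 1, was listed at 0.

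Of 19 tested genes for integrin ligands and counter-receptors 5 rose and 1 fell, a share near the 28.7% called over all tested genes, with a median of 0.02, against 0.01. Tnc, which encodes tenascin-C, averaged 101 ± 29.01 CPM in naphthalene lungs and 34.7 ± 3.80 CPM in control lungs, without overlap (log2 fold change 1.54, adjusted p = 0.000176). Thbs1, which encodes a thrombospondin, and Icam1, the counter-receptor of the Itgb2 integrins, rose by 1.02 and 0.57 on the log2 scale (adjusted p = 0.00678 and 0.00337). The only gene of this list that fell was Npnt, the Itga8 ligand described above, and Fn1, on chromosome 1, was listed at 0. Of 12 tested genes for other laminin receptors and basement membrane collagens 4 rose and 2 fell, with a median of 0.11. Over all tested genes 14.1% were called higher and 14.6% lower. Col4a1 was at 2116, 2082, 2123 and 1140.4 CPM in naphthalene libraries and 921, 901, 792 and 872 CPM in controls, with naphthalene 4 well below the other 3 and above all controls (log2 fold change 1.10 ± 0.23 (SE) at an edgeR adjusted p of 0.00133). Col4a2 rose by 1.09 and Rpsa, the ribosomal protein and laminin receptor gene, by 0.48 on the log2 scale (adjusted p = 0.00156 and 0.00479). Col4a6, a collagen IV chain with a narrower distribution, averaged 25.6 ± 3.19 CPM in naphthalene lungs and 55.98 ± 8.54 CPM in control lungs (adjusted p = 0.000176).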

How the data were processed

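Total RNA of the right cranial lobes of 4 naphthalene-injected and 4 control mice was made into libraries with a strand-specific total RNA kit, per the labels' protocols. The deposited table holds raw counts by gene symbol. The submitters' processing notes list featureCounts 2.0.6, HISAT2 2.2.1, Trim Galore 0.6.7, the build mm39 and edgeR 4.2.1 and do not say what each did. Annotation, strand setting and the treatment of shared reads are not given. Exons of 13 members, 9 of them called, overlap those of another gene in GENCODE M21, among them Itga1, Itga4, Itga8, Itgam, Lama3 and Lamc3, and reads from such stretches may have been lost or assigned to either gene. Columns were matched to mice by library name, with 0 columns of other samples.

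The test was that of edgeR 4.0.16 under R 4.3.3 (TMM scaling, filterByExpr with a minimum count of 10 and minimum total of 15, quasi-likelihood test, group as the only term), with Benjamini-Hochberg adjustment over all 14192 tested genes and a threshold of 0.05. CPM use TMM-scaled totals. Standard errors are those of the difference in mean log2 CPM (prior count 2). Library totals of 10743842 to 16792306 set the counting precision, which is lowest for Itgad, Itga10, Itga11, Itgae and Lama1. No library was a copy of another of its group (chi-square over degrees of freedom 5.57 to 48.5 for each pair). The procedure was tested on simulated data. Alternatives were RLE scaling, no filter or a stricter filter (CPM of 1 in 4 libraries), DESeq2 1.42.0, limma 3.58.1 (voom), a replicate block, an offset for transcript length and GC content (loess, span 0.5), each library left out, and control 3 with naphthalene 1 left out. Lengths, GC content and chromosomes came from GENCODE M21 and RefSeq on GRCm38, another build than mm39, and promoter sequences from RefSeq on GRCm38.p6, which held 26 of the 41 members.

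The members, lists and tests were chosen with earlier results of these data known. Members past the test, with their partners, are given in full. Of each pathway list up to 4 called genes of smallest p are named, and genes at 0 were named after their values were seen. 1 member is not reported here.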

Additional observations from a re-analysis of the deposited data

Results flagged for a closer look

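In groups of 4, a library was set apart where its gap to the nearest other passed Dixon's 95% critical value, as a share of the group's range, which chance gives in about 1 of 20 groups, and 12 of 174 groups did so. Naphthalene 4 accounted for 6 of the 12. It was low for Itga3 (255 CPM, against 395 to 419.9 in the other naphthalene libraries), for Flna (1552 CPM, against 1867 to 1927) and for Col4a1 (1140.4 CPM, against 2082 to 2123). The summed epithelial integrins were also low there (723 CPM, against 944 to 974), as was Itga5 relative to Itga4 per kilobase (1.23, against 3.22 to 3.61), while Lama3 relative to Lama5 was high (0.935, against 0.611 to 0.649). Itgad took 0.9696% of the counts of the Itgb2 partner genes in naphthalene 1, against 1.34% to 1.39% in the other naphthalene libraries. Platelet markers summed to 61.7 CPM in naphthalene 3, against 27.7 to 29.6 in the others. Itga3 relative to Itga6 was 0.745 in control 1, against 0.685 to 0.688 in the other controls. Neutrophil markers summed to 405 CPM in control 3, against 71.2 to 101 in the other controls, and mesothelial markers to 312 CPM there, against 391 to 402. Ciliated markers summed to 861 CPM in control 4, against 542 to 589.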

How the results depend on the processing

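Called members numbered 7 higher and 13 lower. Members higher were 11 with the replicate block, under which Itgav, Itgb1, Itgb4 and Nid1 gained a call as higher and Itgb2 as lower, and 13 with the length and GC offset, under which all genes called higher were 3208, and over the libraries left out they ranged from 3 to 10, with 8 to 15 lower. The replicate numbers do not pair the mice by the labels, and deviations of same-numbered libraries correlated at 0.29, 0.03, 0.18 and -0.09 (2 of 4 best with their own number). The difference in log2 ratio of epithelial to leukocyte integrins was 0.93 and ranged from 0.83 to 1.13 over the libraries left out, 0.72 as a mean over genes and 0.71 without Itga4 and Itgae. Of 608 comparisons of single members with an alternative, 523 kept direction and side of the threshold, 43 lost the call, 30 gained one and 12 changed direction, all 12 for genes not called. Agrn changed to 0.16 with the offset, and ranged from -0.090 to 0.040 over the libraries left out (0.012 without naphthalene 3, 0.033 without naphthalene 4, 0.040 without control 1). Lamb2 changed to 0.10 with the offset and ranged from -0.13 to 0.075 (0.0073 without naphthalene 3, 0.075 without naphthalene 4, 0.0037 without control 4). Hspg2 changed to 0.072 with the offset. Itgb6 ranged from -0.020 without naphthalene 3 to 0.23, Itgad from -0.48 to 0.049 without control 4, and Lamb1 was -0.020 without both control 3 and naphthalene 1. The cause was not tested. Depth limits Itgad, Lama1, Itga10, Itga11 and Itgae, and the counts say nothing of Lamb3 and Lamc1.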
